A study of Mus musculus with 4 samples.

Results

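Cma1, Mcpt2, Mcpt4, Mcpt8 and Tpsb2 encode serine proteases that mast cells or basophils store in their secretory granules. The members were the probe sets of the expression table whose only annotated gene symbol was 1 of these 5. Each gene had 1 probe set, so there were 5 probe sets among 10861 and 5 genes among 6404. RNA came from mouse EML cells, a lymphohematopoietic progenitor line, and was measured on 4 Affymetrix arrays. D816V cells with SCF and D816V cells without SCF carried KIT mutated in the phosphotransferase domain. Del417-419insY cells with SCF and without SCF carried KIT mutated in the extracellular domain. SCF, stem cell factor, is the ligand that activates the KIT receptor, a tyrosine kinase, and was added at 250 ng/mL for 48 h. All 4 groups carried a mutant KIT brought in with a pLXSN retroviral vector, and no array of EML cells with unmutated KIT was analysed here. Each mutant line was selected with geneticin and then for growth without factor, and was sorted for cells with the KIT variant. It was 1 transduced population, and each group was 1 array, so no value has a replicate. Precision is limited by the number of arrays.

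Mast cell granule proteases are made as inactive precursors, are activated by removal of a short propeptide, and are stored bound to the proteoglycan serglycin and its heparin chains. Chymotrypsin-like chymases cut after aromatic residues and tryptases after basic ones. Which proteases a mouse mast cell holds differs between the connective tissue and the mucosal type, and their genes are commonly used to follow mast cell maturation. Cma1 encodes an alpha-chymase of connective tissue mast cells. Mcpt4 encodes the main chymotrypsin-like chymase of the same cells, Mcpt2 a protease of mucosal mast cells, and Mcpt8 a protease used as a marker of mouse basophils. Tpsb2 encodes a tryptase that forms tetramers with heparin. KIT signalling is needed for mast cell growth and survival, and both kinds of KIT mutation are found in mastocytosis, in which mast cells accumulate.

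The RefSeq annotation of assembly GRCm38.p6 places Cma1, Mcpt2, Mcpt4 and Mcpt8 in this order on mouse chromosome 14, within a run of 9 genes of which 7 code for protein. Of the 9, these 4 had a value in the table. Ctsg, the neutrophil protease cathepsin G, follows Mcpt8 in the same cluster, with a microRNA gene between them. Tpsb2 lies on chromosome 17 between Tpsab1, annotated as a transcribed pseudogene in this assembly, and Tpsg1. Neither neighbour had a value here. The chymase genes are close paralogs, and cross-reading between their probe sets was not tested.

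Promoter windows of 300 bases, from 250 before to 50 after the annotated start, were found in RefSeq (GRCm38.p6) for 3 of the 5 genes. All 3, those of Cma1, Mcpt4 and Mcpt8, are shown, and the other 2 members had no window there. The windows are chr14:55944626-55944925 for Cma1, chr14:56062261-56062560 for Mcpt4 and chr14:56085148-56085447 for Mcpt8, all on the minus strand. Each is printed 5′ to 3′ along the gene, and capitals mark matches to the motifs named after them.
Cma1: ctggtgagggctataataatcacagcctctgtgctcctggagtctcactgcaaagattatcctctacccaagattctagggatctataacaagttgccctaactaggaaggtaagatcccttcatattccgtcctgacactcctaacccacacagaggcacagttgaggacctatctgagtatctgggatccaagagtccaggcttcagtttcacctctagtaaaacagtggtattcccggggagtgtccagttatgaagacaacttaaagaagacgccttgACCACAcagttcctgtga
Mcpt4: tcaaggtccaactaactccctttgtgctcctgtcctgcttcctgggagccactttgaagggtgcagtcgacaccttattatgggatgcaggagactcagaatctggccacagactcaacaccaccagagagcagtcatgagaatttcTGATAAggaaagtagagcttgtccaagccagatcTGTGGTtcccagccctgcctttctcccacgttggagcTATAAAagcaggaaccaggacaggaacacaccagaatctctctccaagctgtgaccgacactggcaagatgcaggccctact
Mcpt8: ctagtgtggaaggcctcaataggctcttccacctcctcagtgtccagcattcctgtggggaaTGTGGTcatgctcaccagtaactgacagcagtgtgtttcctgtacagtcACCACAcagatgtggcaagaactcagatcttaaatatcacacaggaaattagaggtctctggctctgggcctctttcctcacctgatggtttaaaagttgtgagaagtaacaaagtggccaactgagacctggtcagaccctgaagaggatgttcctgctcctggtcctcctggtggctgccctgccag
The motifs searched on both strands were AGATAA for GATA factors, its variant TGATAA for the same factors, CATGTG for MITF, the palindrome CACGTG also for MITF, TTCNNNGAA for STAT factors, TGTGGT for RUNX factors, besides TATAAA for the TATA box. The RUNX motif was in all 3 windows, against 16.8% of the 32851 promoter windows in the RefSeq table. In Mcpt8 it occurred on both strands, beginning 188 and 139 bases before the start, and in Mcpt4 it began 69 bases before the start. In Cma1 its match lay on the opposite strand inside the transcribed part. A match on the opposite strand reads ACCACA as printed. Mcpt4 also held TGATAA, which 9.05% of all windows hold, beginning 103 bases before the start, and TATAAA, which 13.6% hold, beginning 32 bases before it. The other 4 motifs had no match in these windows, while 11.2% of all windows held AGATAA, 14.2% CATGTG, 7.15% CACGTG and 8.3% TTCNNNGAA. No 2 of the marked matches overlapped. A match describes these letters only, and Mcpt2 and Tpsb2 were not searched.

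**Figure D1:**
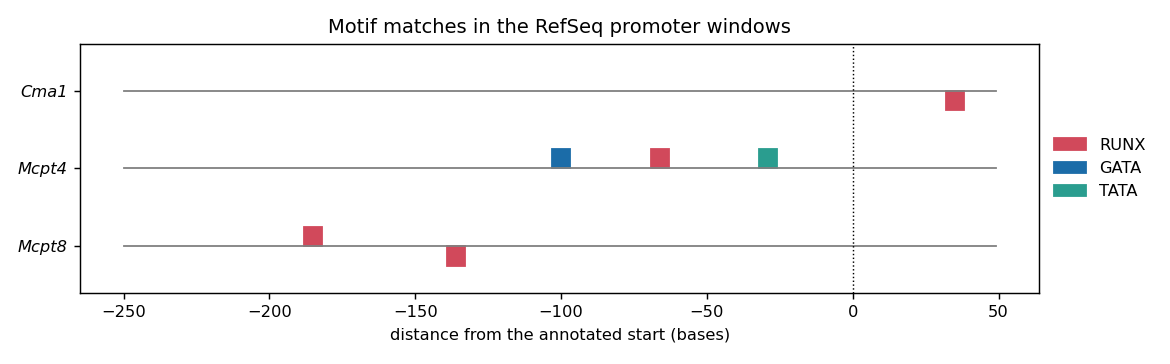
Motif matches in the RefSeq promoter windows of Cma1, Mcpt4 and Mcpt8. The horizontal axis is the distance from the annotated start in bases, blocks above a line are matches on the strand of the gene and blocks below it on the opposite strand. The RUNX motif appears in all 3 windows, while the GATA variant and the TATA box appear in that of Mcpt4.

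The deposited values are relative log2 levels. Their zero is set separately for each probe set, so arrays can be compared for 1 gene but genes cannot be compared in level. Array medians over all probe sets ran from -0.20 on the D816V array with SCF to -0.01 on the Del417-419insY array without SCF, and the median gene differed by -0.14 between the mutants with SCF and by -0.08 without it. Of 11 measured genes of 18 in a list of mast cell genes other than proteases, 6 were higher and 2 lower in D816V cells by the test used below and 3 did not pass. Of all genes 17.9% were higher and 24.7% lower by that test. Relative values cannot show whether a defining mast cell gene is absent from these cells.

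The first comparison asks whether granule protease RNA differs between cells with the phosphotransferase domain mutant and cells with the extracellular domain mutant. All 5 genes were higher in D816V cells by the test described below, as 17.9% of all genes were, by 2.42-fold for Tpsb2 to 16.8-fold for Cma1 on average over both SCF conditions. In bulk RNA, a larger share of cells that make a protease and more RNA per cell cannot be told apart.

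Cma1 (probe set 1449456_a_at) was at a relative log2 level of 1.41 with SCF and 2.61 without SCF in D816V cells, against -1.68 with SCF and -2.44 without SCF in Del417-419insY cells. Both D816V arrays lay far above both Del417-419insY arrays. The log2 difference was 3.10 with SCF and 5.04 without SCF, that is 8.54-fold and 32.9-fold.

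Mcpt2 (1449989_at) was at 0.65 with SCF and 1.73 without SCF in D816V cells, against -0.21 and -0.61 with and without SCF in Del417-419insY cells. The D816V arrays were again the upper pair, and the D816V array with SCF came nearest to the other line. The log2 difference was 0.86 with SCF and 2.34 without SCF.

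Mcpt8 (1449965_at) was at 0.01 with SCF and 1.01 without SCF in D816V cells, against -1.05 with SCF and -0.99 without SCF in Del417-419insY cells. The Del417-419insY arrays were almost level with each other, and both lay below the D816V arrays. The log2 difference was 1.06 with SCF and 2.00 without SCF.

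Mcpt4 (1425967_a_at) was at -1.42 with SCF and 0.35 without SCF in D816V cells, against -3.65 with SCF and -1.51 without SCF in Del417-419insY cells. Here the arrays with SCF were the low ones in both lines, and the D816V array with SCF stood only 0.09 above the Del417-419insY array without SCF. The log2 difference between the mutants was 2.23 with SCF and 1.86 without SCF.

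Tpsb2 (1422180_a_at) was at -1.52 with SCF and -0.19 without SCF in D816V cells, against -3.10 with SCF and -1.15 without SCF in Del417-419insY cells. It was the only member of the 5 whose lines overlapped, since the D816V array with SCF lay 0.36 below the Del417-419insY array without SCF (a difference of -0.36). After cyclic loess and after quantile normalization this difference was 0.39 and 0.08, and the lines no longer overlapped. With array medians at 0 it was -0.18 and with the highest-mean probe set -0.36, and the lines still overlapped. Compared at the same SCF condition, Tpsb2 was higher in D816V cells by 1.59 with SCF and by 0.97 without SCF.

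**Figure D2:**
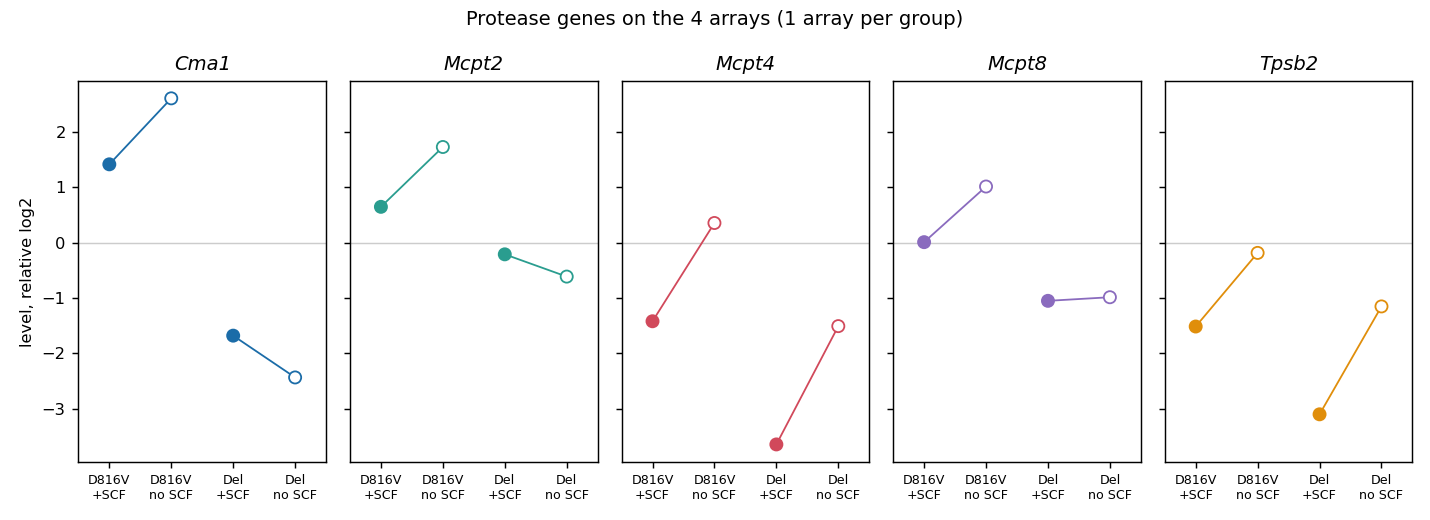
Relative log2 level (vertical axis) of each protease gene on the 4 arrays (horizontal axis), with filled circles for arrays with SCF and open circles for arrays without SCF; Del stands for Del417-419insY and a line joins the arrays of 1 mutant. Each point is 1 array, and levels can be compared within a panel only. Mcpt4 and Tpsb2 were lowest on the Del417-419insY array with SCF, at -3.65 and -3.10, while Cma1 was lowest on the Del417-419insY array without SCF, at -2.44.

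The difference between the mutants was tested with limma, which fitted genotype and SCF as additive terms to all 6404 genes on all 4 arrays, with Benjamini-Hochberg adjustment over these genes. Without replicate arrays its error is how far the SCF responses of the 2 lines differ, so the spread between repeat arrays or repeat populations is in none of its p-values. The test called all 5 protease genes higher in D816V cells. It called 17.9% of all genes higher and 24.7% lower, against 25.4% and 19.7% after cyclic loess, 23.8% and 21.7% after quantile normalization, and 26.9% and 20.3% with array medians at 0. Mcpt4 had the smallest adjusted p of the 5 (limma, mean log2 difference 2.04, SE 0.14, adjusted p = 0.000718), and its difference was almost the same in both conditions. Cma1 had the largest difference and also the largest error (limma, 4.07, SE 0.45, adjusted p = 0.00304). Mcpt8 differed by 1.53 (limma, SE 0.24, adjusted p = 0.00845) and Tpsb2 by 1.28 (limma, SE 0.18, adjusted p = 0.00633). Mcpt2 had the largest adjusted p (limma, 1.60, SE 0.35, adjusted p = 0.0208). Without the SCF term the fit called 3 of the 5, and 10.8% of all genes higher. Mcpt4 and Tpsb2 no longer passed, with limma adjusted p of 0.0981 and 0.193, since their SCF differences then count as error.

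By size, 4 of the 5 genes were 2-fold or more higher in D816V cells with SCF, where 6.34% of all genes were, and 4 without SCF, where 6.29% were. In both conditions 3 of the 5 reached this size, Cma1, Mcpt4 and Mcpt8, against 5.15% of all genes. Mcpt2 missed it with SCF and Tpsb2 without SCF. With array medians set to 0 all 5 reached it in both conditions, because Mcpt2 was then at 1.01 with SCF and Tpsb2 at 1.05 without SCF. Of all genes 5.72% reached it then. After cyclic loess and after quantile normalization 4 of the 5 reached it in both conditions, against 5.42% and 5.36% of all genes. The median of the mean differences was 1.60 over the 5 genes and -0.10 over all genes. Among all 6404 genes ordered from the highest difference down, Cma1 stood 35th, Mcpt4 168th, Mcpt2 220th, Mcpt8 234th and Tpsb2 283rd.

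The second comparison asks what added ligand accompanies in each mutant line. With SCF, all 5 protease genes were 2-fold or more lower in D816V cells, where 1.31% of all genes were. In Del417-419insY cells the 5 genes split: Mcpt4 and Tpsb2 were 2-fold or more lower, where 0.547% of all genes were, Mcpt8 stood near 0, and Cma1 and Mcpt2 were above 0. None of the 5 was 2-fold or more higher with SCF in either line, as 0.328% of all genes were in D816V cells and 0.328% in Del417-419insY cells. Each of these differences rests on 1 array a side and has no replicate check. The arrays without SCF have no stated culture time in the sources used here, so SCF and time in culture cannot be told apart.

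Mcpt4 had an SCF difference of -1.77 in D816V cells and -2.14 in Del417-419insY cells, that is 3.42-fold and 4.40-fold lower. Among all 6404 genes ordered from the lowest SCF difference up, it stood 1st in Del417-419insY cells and 8th in D816V cells. Tpsb2 had differences of -1.33 in D816V and -1.95 in Del417-419insY cells, 2.51-fold and 3.86-fold lower, and stood 26th and 2nd. In the mean over both lines Mcpt4 and Tpsb2 stood 1st and 2nd from the lowest, while they stood 1st and 3rd after cyclic loess, 2nd and 7th after quantile normalization, and 3rd and 8th with the highest-mean probe set of each gene. Both were among the 15 genes that were 2-fold or more lower in both lines, a share of 0.234% of all genes. The chymase and the tryptase lie on different chromosomes, and each value comes from a single probe set. In Del417-419insY cells alone they stood 5th and 6th after quantile normalization, and 3rd and 4th with the highest-mean probe set.

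Cma1 differed by -1.19 with SCF in D816V cells and by 0.76 in Del417-419insY cells. Mcpt2 differed by -1.08 in D816V and by 0.40 in Del417-419insY cells, the same pair of directions. Such a combination, 2-fold or more lower in D816V cells and above 0 in Del417-419insY cells, was found in 0.344% of all genes. Of the 5 protease genes 2 had it, as after cyclic loess, but 1 had it with array medians at 0 and 0 after quantile normalization. Of all genes 0.25% had it after cyclic loess, 0.297% with array medians at 0 and 0.172% after quantile normalization. For Cma1 and Mcpt2 the 2 signs were the same under cyclic loess, quantile normalization and median centring. Mcpt8 differed by -1.01 in D816V cells, just past 2-fold, and by -0.07 in Del417-419insY cells.

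Scaling moved some of the D816V differences across the 2-fold line, and not only the smallest. After cyclic loess Tpsb2 was at -0.98, while Cma1 and Mcpt2 stayed past the line at -1.14 and -1.05. Of the 5 genes, 3 were 2-fold or more lower in D816V cells after cyclic loess and 3 with array medians at 0, and 2 were after quantile normalization. Of all genes 0.781%, 0.968% and 0.547% were, in the same order. The D816V array with SCF, on which all these differences rest, also had the lowest median of the 4 arrays. The D816V difference of Mcpt4 was -1.43 after cyclic loess, -1.48 after quantile normalization and -1.68 with array medians at 0.

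**Figure D3:**
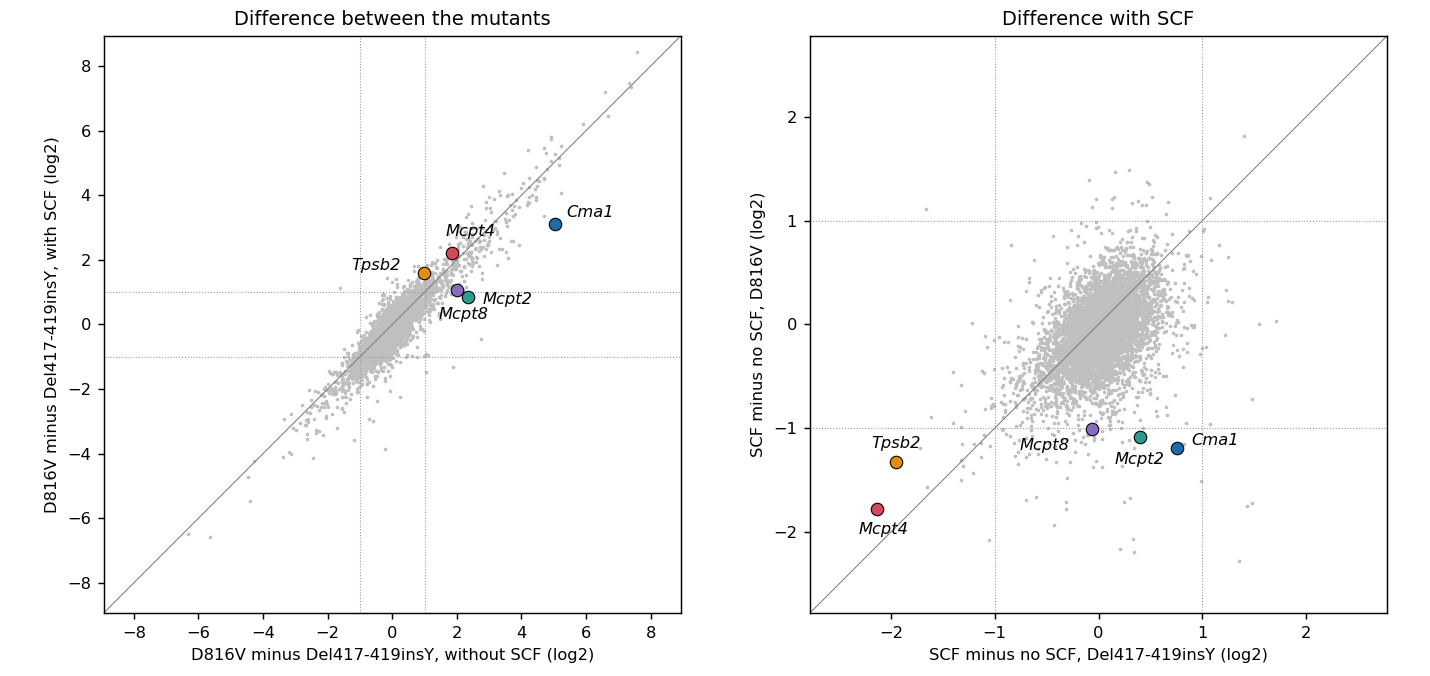
Log2 differences of all 6404 genes (grey) and the 5 protease genes (coloured). The left panel sets the difference D816V minus Del417-419insY with SCF (vertical) against that without SCF (horizontal), and the right panel sets SCF minus no SCF in D816V (vertical) against that in Del417-419insY cells (horizontal). Dotted lines mark 2-fold and the diagonal marks equal differences. In the right panel Mcpt4 and Tpsb2 lie at the lower left, at -2.14 and -1.95 on the horizontal axis, while Cma1 and Mcpt2 lie at the lower right, at 0.76 and 0.40.

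In the same limma fit no protease gene passed for SCF, and 0% of all genes were called lower or higher. At an unadjusted p under 0.05, 2 of the 5 genes, Mcpt4 and Tpsb2, and 18.5% of all genes were found. Mcpt4 had a mean SCF difference of -1.96 (limma, SE 0.14, adjusted p = 0.089) and Tpsb2 of -1.64 (limma, SE 0.18, adjusted p = 0.0975). Over the alternative settings the adjusted p ran between 0.0011 and 1 for Mcpt4 and between 0.00277 and 1 for Tpsb2. Mcpt8, Mcpt2 and Cma1 had mean differences of -0.54, -0.34 and -0.22, with limma adjusted p of 0.304, 0.619 and 0.818. Their 95% intervals were -1.14 to 0.07, -1.23 to 0.55 and -1.36 to 0.92.

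**Figure D4:**
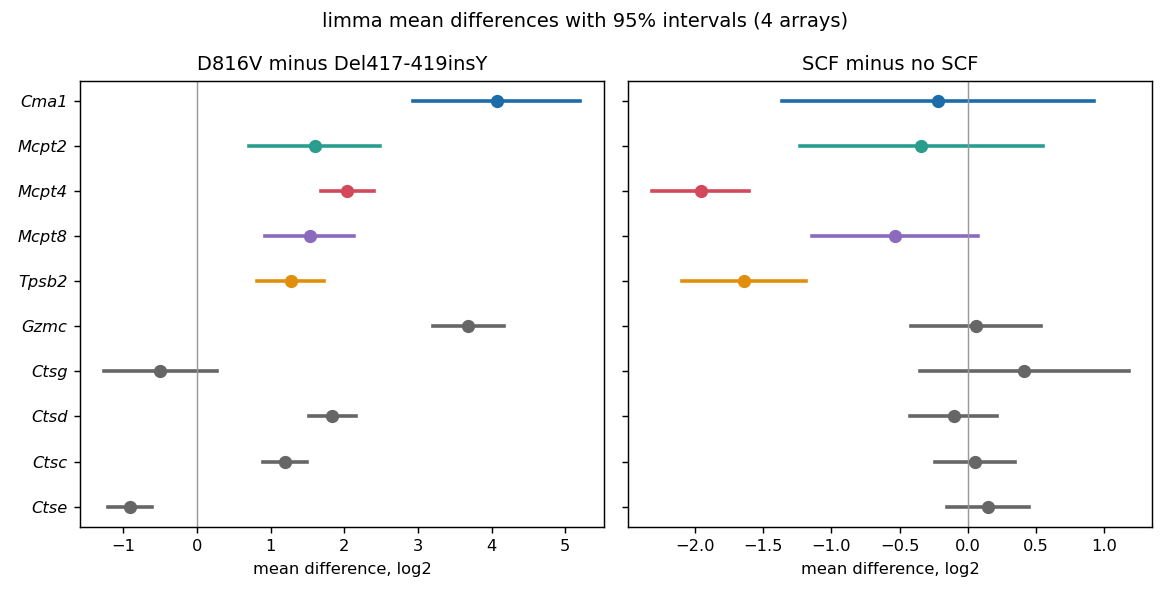
Mean log2 difference (horizontal axis) with its 95% interval from limma over 4 arrays, between the mutants (left) and with SCF (right), for the 5 protease genes (coloured) and the other measured genes of the protease cluster and protease activation lists (grey). All 5 intervals lie above 0 on the left. On the right the intervals of Mcpt4 and Tpsb2 lie below 0 before adjustment over all genes, and those of Cma1, Mcpt2 and Mcpt8 span it.

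The SCF difference in D816V cells minus that in Del417-419insY cells was -1.95 for Cma1, -1.48 for Mcpt2, -0.94 for Mcpt8, 0.36 for Mcpt4 and 0.62 for Tpsb2. It is the quantity the fit takes for error, so it could not be tested. For Cma1 and Mcpt2 the SCF difference was lower in D816V cells by 2-fold or more, as it was for 1.42% of all genes.

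By distance across the 4 arrays the members formed 2 pairs and a single gene. Likeness was measured as the Euclidean distance between the log2 values of 2 genes after each was set to a mean of 0 over the 4 arrays. Mcpt2 and Mcpt8 lay 0.34 apart and Mcpt4 and Tpsb2 0.84 apart, and Cma1 was at least 2.48 from each of the others. The values were not scaled to a common range, so distance also reflects the size of the changes. Cma1 ranged over 5.04 and Mcpt2 over 2.34, with the same order of the 4 arrays. The distances between the pairs ran from 1.38, for Mcpt8 and Tpsb2, to 1.91. With 4 points, of which none is a replicate, these distances are a description.

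Among the genes outside the group, the nearest to Cma1 was Usp18, a protease that removes the ubiquitin-like protein ISG15, at a distance of 0.38, followed by the interferon-inducible GTPase gene Iigp1 at 0.70 and Armcx3 at 0.73. A gene at the middle of the distribution lay 4.29 from Cma1. Mtss1, which encodes an actin-binding protein, was nearest to both Mcpt8, at 0.14, and Mcpt2, at 0.26. Next to Mcpt8 came Hdc, the histamine-forming enzyme of mast cells and basophils, at 0.26, and Agap1 at 0.29, against a median gene at 1.80. Next to Mcpt2 came Zfp36l1, an RNA-binding protein gene, at 0.34 and Irgm2, another interferon-inducible GTPase gene, at 0.35, against a median of 1.91. The nearest to Mcpt4 were Gas7 at 1.05, Pkd2l1 at 1.10 and Bpifc at 1.22, and the nearest to Tpsb2 were the lipid phosphatase gene Inpp4b at 0.71, Fgfr1op2 at 0.78 and the casein kinase gene Csnk1a1 at 0.86. Setting array medians to 0 shifts all genes of an array alike, so it cannot change these distances and is no check of them. After cyclic loess none of the 3 names was shared for Mcpt8 and for Tpsb2. For Cma1 and Mcpt2 1 was shared there, and for Mcpt4 2 were.

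Of the other 12 genes listed for the chymase and granzyme cluster, 2 were measured. Gzmc, which encodes granzyme C of cytotoxic lymphocytes, was at 6.63 with SCF and 6.23 without SCF in D816V cells, against 2.61 with SCF and 2.88 without SCF in Del417-419insY cells. Its mean difference was 3.69 (limma adjusted p = 0.000328), 3.80 with array medians at 0 and 1.53 after quantile normalization. After cyclic loess it was -1.14 and passed in the other direction. Cyclic loess corrects along the level of each probe set, and these levels are relative here. The change of sign therefore cannot show which direction is right. Ctsg, the neighbour of Mcpt8, did not pass, with -1.12 between the mutants with SCF and 0.13 without SCF. The tryptase cluster list had 10 genes, of which only Tpsb2 was measured.

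Among genes that activate or accompany granule proteases, 3 of 7 listed were measured, and all 3 passed. Beside each count in this paragraph, 17.9% of all genes were higher in D816V cells and 24.7% lower. Ctsc, the dipeptidyl peptidase that removes the propeptide of chymases and granzymes, was higher in D816V cells by 1.20 (limma adjusted p = 0.0021), and the lysosomal protease gene Ctsd by 1.84 (limma adjusted p = 0.000699). Ctse, an aspartic protease, was lower (-0.91, limma adjusted p = 0.00502). With SCF, Ctsc differed by 0.02 in D816V and 0.08 in Del417-419insY cells, where Mcpt4 and Tpsb2 were 2-fold or more lower in both lines. Of 14 measured genes of 23 for the serglycin core and for heparin and chondroitin synthesis, 3 were higher, 4 were lower and 7 did not pass, with a median of -0.12 beside -0.10 over all genes. Ndst2, a sulfotransferase needed for heparin in mouse mast cells, was higher by 1.38, while Glce, the epimerase of the same pathway, was lower (-1.32). Of 5 measured protease inhibitors of 16 listed, Serpinb1a, an inhibitor of neutrophil elastase and cathepsin G, was higher by 1.84 and Serpinb6b lower (-0.76), and 3 did not pass.

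Granule secretion genes were higher in 6 and lower in 1 of 9 measured genes of 19, with a median of 0.71, where 17.9% of all genes were higher and 24.7% lower. Rab27b, a GTPase of granule docking, led at 4.16, followed by the membrane fusion protein gene Stx3 at 1.32. Transcription factor genes of the mast cell lineage were higher in 6 and lower in 4 of 17 measured genes of 20, with a median of -0.21 that lay between -0.21 and 0.02 over the alternative settings, beside the same shares of all genes. Bhlhe40 was at 3.21 and Id2 at 1.24. Among mast cell genes other than proteases, Fcer1a, the alpha chain of the IgE receptor, and Tph1, of serotonin synthesis, had the largest differences, at 6.06 and 5.37, with a list median of 0.62. The 2 lower genes of this list, named after their values were seen, were Kit itself (-1.42, limma adjusted p = 0.00568) and the tetraspanin gene Cd9 (-1.20, limma adjusted p = 0.00441). Whether the Kit probe sets also read the introduced KIT was not tested. The SCF difference of this list had a median of -0.41 in D816V and -0.06 in Del417-419insY cells, beside -0.05 and 0.03 over all genes. Its median in D816V cells was -0.17 after cyclic loess and -0.15 after quantile normalization.

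Markers of other cell types were read beside the proteases, and their part in the results was not tested. Relative values give no summed level of a marker list and no marker at 0. Beside the counts that follow, 17.9% of all genes were higher in D816V cells and 24.7% lower. Of 7 basophil markers 1 was measured, Il3ra, which did not pass, with a mean difference of 0.04. Of 11 neutrophil and promyelocyte granule genes 3 were measured, of which Mpo was lower in D816V cells (-1.64) and Prtn3 and Ctsg did not pass. Of 9 cytotoxic lymphocyte genes 4 were measured, of which Gzma, granzyme A, at 8.01, and Gzmc were higher and 2 did not pass. After cyclic loess 1 of these 4 was higher and 2 were lower, where 25.4% and 19.7% of all genes were. Gzma was then at 3.85, and the list median was -0.33 in place of 1.89. Erythroid and progenitor genes were lower in 4 of 5 measured genes of 6, with Car1 at -2.95 and Gfi1 at -1.82. Gfi1 differed by -2.92 with SCF and by -0.72 without SCF, and it did not pass with a trend in the prior (limma adjusted p = 0.0612) or with a robust prior (limma adjusted p = 0.0894).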

How the data were processed

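RNA of 4 cultures was hybridised to Affymetrix mouse arrays and quantified with the supplier's GCOS software, per the series' design text. The deposited log2 values are RMA output, per the submitters' processing notes; its version, the log base and the level each probe set was set against are not given in the sources used here, and the base was taken from RMA. The table holds 10861 probe sets, of which 9633 had 1 gene symbol in the platform annotation, 264 several and 964 none. Symbols were updated through the gene ID to the RefSeq annotation of GRCm38.p6, and 11 IDs had no match. Probe sets of 1 gene were averaged, giving 6404 genes. The limma 3.58.1 fit in R 4.3.3 (lmFit and eBayes, ~ genotype + SCF, 4 arrays, 1 residual degree of freedom per gene, prior of 4.1 degrees of freedom with SD 0.127) called genes at an adjusted p under 0.05, two-sided. It was tested on simulated data with additive genotype differences and independent noise. That simulation held no difference between the SCF responses beyond noise, so it cannot check the error of the fit on these arrays. The 2-fold counts have no test. No depth or signal over background could be examined from these values, dim probe sets were not filtered here, and no array could be left out of a group of 1. It is unknown whether other probe sets of the array were removed before these 10861 were submitted. A gene without a value may therefore still have been on the array. Genes called measured are those with a value, and shares of all genes are shares of these 6404. Slide and background alternatives could not be tried.

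Named genes were the 5 members, every measured gene of the protease cluster and protease activation lists, the 2 genes with the largest mean difference between the mutants in each other list, and the 3 nearest genes per member; other names were chosen after their values were seen. Alternatives were cyclic loess, quantile normalization, array medians at 0, the highest-mean probe set, a fit without the other term, a trend in the prior and a robust prior. Cyclic loess, the highest-mean probe set and the trend in the prior use levels compared between probe sets or genes. These levels are relative here. The members, gene lists and motifs were chosen with earlier results of these data known.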

Additional observations from a re-analysis of the deposited data

Results flagged for a closer look

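Some genes named here had SCF differences of opposite sign in the 2 lines that lay 2-fold or more apart. With 1 array per group the difference between the lines was not tested. Among the proteases, the SCF difference in D816V cells minus that in Del417-419insY cells was -1.947 for Cma1 and -1.483 for Mcpt2. Of the genes nearest to them, it was -1.352 for Usp18, -1.156 for Iigp1, -1.039 for Mtss1, -1.041 for Zfp36l1 and -1.119 for Irgm2, which were chosen for their likeness to Cma1, Mcpt2 or Mcpt8 over the same arrays. It was -1.252 for Ctsg and -2.199 for Gfi1.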

How the results depend on the processing

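All 5 protease genes passed as higher in D816V cells under 6 of the 7 alternatives. The fit without the SCF term called 3, and 10.8% of all genes. For SCF the additive fit called 0 of the 5, and 0% of all genes. The fit called 2 lower after cyclic loess, with array medians at 0 and with the highest-mean probe set (Mcpt4 and Tpsb2 each time). Of all genes 0.453%, 2.23% and 3.36% were called lower there. After quantile normalization 1 was called (Mcpt4), and 0.0156% of all genes. With a trend in the prior, a robust prior or no genotype term 0 were, and at most 0.125% of all genes. The number 2-fold or more higher in both conditions became 5 with array medians at 0, where 5.72% of all genes were. After cyclic loess and after quantile normalization it became 4, where 5.42% and 5.36% of all genes were. The number 2-fold or more lower with SCF in D816V cells became 3 after cyclic loess and with array medians at 0, and 2 after quantile normalization. Of all genes 0.781%, 0.968% and 0.547% were, in the same order. In both lines it became 1 after cyclic loess, where Tpsb2 was at -0.98 in D816V cells and 0.219% of all genes reached it. Gzmc, at -1.136, and Ctsg, at 0.061, turned round after cyclic loess. For these counts and both genes the cause was not tested. Among the other named genes, 9 of 238 genotype results lost their call and 2 turned round. Over all settings mast cell genes other than proteases were 5 to 8 higher and 2 lower of 11, and granule secretion genes 5 to 6 higher. Transcription factor genes were 3 to 8 higher and 3 to 6 lower. Over the same settings 10.8% to 26.9% of all genes were higher and 14.3% to 26.5% lower. No block by replicate number could be fitted because each group had 1 array. The additive terms already compare the mutants within each SCF condition, and the fit without the SCF term is the unpaired one.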

Other observations

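Some mast cell genes outside the protease group were also lower on the D816V array with SCF. These 3 genes were chosen after their values were seen, as the members of the 11 measured mast cell genes other than proteases that were 2-fold or more lower there, as 1.31% of all genes were. After cyclic loess, after quantile normalization and with array medians at 0, 2 of the 11 were, against 0.781%, 0.547% and 0.968% of all genes. Ms4a2, the beta chain of the IgE receptor, differed with SCF by -1.67 in D816V cells and by -0.60 in Del417-419insY cells. Hpgds, a prostaglandin D synthase, differed by -1.48 and -0.30, and Hdc by -1.06 and -0.43, in the same order of lines. None of the 11 was 2-fold or more lower in Del417-419insY cells, where 0.547% of all genes and both Mcpt4 and Tpsb2 were. With the highest-mean probe set of each gene 1 was (Hdc), and 1.5% of all genes were. Fcer1a and Tph1, which differed most between the mutants in that list, had SCF differences of -0.25 and 0.03 in D816V cells.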
